A study of Mus musculus with 40 samples.

Results

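Potassium channel genes were followed in the hypothalamus of 40 mouse strains, in the basal state and without treatment. The genes were taken by name as every symbol in the count table that begins with Kcn, leaving out Kcnj11, Kcnj13 and Kcne2, which gave 94 of the 23955 genes counted. The strains were 36 BXD lines, which are recombinant inbred lines bred from C57BL/6J and DBA/2J and are homozygous mosaics of both genomes, the reciprocal hybrids B6D2F1 and D2B6F1, which are heterozygous wherever the parents differ, and the inbred parents C57BL/6J and DBA/2J. Each strain gave 1 library, and the library of a BXD line pooled equal amounts of RNA from 3 to 6 hypothalami, so the spread given here is that between strains and holds animal, dissection and library differences as well as genotype. Age and sex are not given in the sources used here.

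Potassium channels let potassium leave or enter a cell along its gradient and so set the resting potential, the length of the action potential and the firing pattern of neurons. Voltage-gated (Kv) channels are tetramers of alpha subunits that open on depolarisation, with cytoplasmic beta subunits, KChIP calcium-binding proteins and small KCNE proteins as accessory subunits. Inward rectifiers (Kir) and two-pore-domain leak channels (K2P) act near rest, and the large (BK), small (SK) and sodium-activated (Slack) conductance channels open with intracellular calcium or sodium. In the hypothalamus such channels shape the firing of peptide neurons, and in astrocytes Kir channels take up potassium that neurons release.

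The libraries held 12.2 to 40.4 M counted reads, with a median of 23.6 M. Levels between genes are compared below as reads per kilobase of exon, scaled to library size (RPKM). Levels of 1 gene are compared between strains in library-scaled counts (CPM) after TMM scaling. The exon length joins all annotated transcripts of a gene, so exons that are not used in this tissue lower its RPKM. None of the 94 genes was at 0 in all 40 libraries, and 75 of 94 averaged at least 1 CPM over the lines. All 20 hypothalamic marker genes looked up (neuropeptides such as Pomc, Avp and Hcrt and transcription factors such as Nkx2-1) were found, 19 of them at 1 CPM or more, and their summed level ran from 455 through a median of 707 to 1075 CPM over the lines. A pair of libraries stood apart. BXD32 had 799 CPM of Ttr, the transthyretin gene of the choroid plexus, where the next line had 79.0 CPM. It also held 55.9 CPM of the glycine transporter gene Slc6a5, where the next line had 0.201 CPM, and its 16 hindbrain genes, mostly Hox genes, summed to 129 CPM, against at most 1.51 CPM in any other line. Its hypothalamic marker sum was 502 CPM, the third lowest. BXD90 had a summed level of striatal markers of 2549.8 CPM, against a median of 896 CPM and at most 1387 CPM in any other line. Where leaving out either library changed which channel genes were called, the values without it are given.

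By length-corrected level the most abundant channel gene was Kcnj10, which encodes the astrocytic inward rectifier Kir4.1, at a mean of 123 RPKM over the lines. Kcnab2, a Kv beta subunit gene, followed at 36.4 RPKM, Kcna6 (Kv1.6) at 29.8 RPKM, Kcnc1 (Kv3.1) at 28.5 RPKM and Kcnip4 (KChIP4) at 25.4 RPKM. All 94 genes together took 4258 ± 205 CPM of the counted reads (SD, n = 36 lines), and the 13 Kir genes alone took 930.1 ± 125 CPM.

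**Figure D1:**
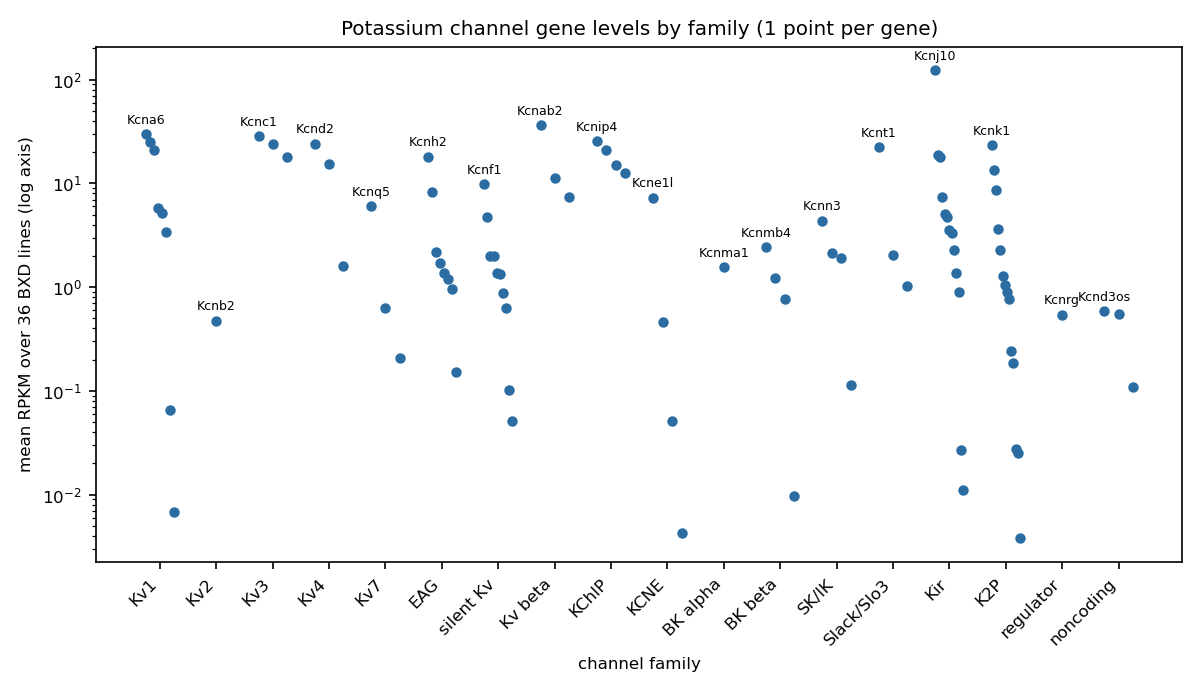
Mean level over the 36 BXD lines in RPKM (log axis) of potassium channel genes, 1 point per gene, with families along the x axis and the highest point of each family named; genes not reported here are left out. Kcnj10 stands highest at 123 RPKM, and levels within most families spread over more than a factor of 10.

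Among the pore-forming Kv genes, the Shaker-type Kv1 family was led by Kcna6, Kcna1 at 25.1 RPKM and Kcna2 at 21.2 RPKM, the last 2 encoding the axonal channels Kv1.1 and Kv1.2. All 4 genes of the fast-deactivating Kv3 family were well detected, with Kcnc1, Kcnc4 at 23.8 RPKM and Kcnc2 at 18.1 RPKM as the highest. The Kv4 genes for A-type current stood at 24.1 RPKM for Kcnd2, 15.4 RPKM for Kcnd3 and 1.61 RPKM for Kcnd1. Kcnb2, a delayed rectifier gene, had 0.475 RPKM. In the Kv7 family of M-current channels Kcnq5 had 6.06 RPKM. The ether-à-go-go group was led by Kcnh2 (ERG1) at 18.2 RPKM, ahead of Kcnh1 at 8.24 RPKM and Kcnh6 at 2.20 RPKM. The electrically silent Kv subunit genes, whose products act only in partnership with Kv2 channels, were led by Kcnf1 at 9.89 RPKM, Kcns2 at 4.70 RPKM and Kcns3 at 2.00 RPKM.

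Among the accessory subunits, the other Kv beta genes Kcnab3 and Kcnab1 had 11.4 and 7.43 RPKM, and beside Kcnip4 the KChIP genes Kcnip3 and Kcnip2 had 21.2 and 15.01 RPKM. Of the KCNE genes Kcne1l had 7.26 RPKM, Kcne4 0.459 RPKM and Kcne3 0.0509 RPKM. The BK pore gene Kcnma1 had 1.56 RPKM, and its beta subunit genes Kcnmb4, Kcnmb2 and Kcnmb1 had 2.42, 1.23 and 0.770 RPKM. The SK genes Kcnn3, Kcnn2 and Kcnn1 had 4.39, 2.14 and 1.92 RPKM. The sodium-activated channel gene Kcnt1 had 22.2 RPKM, its relative Kcnt2 2.06 RPKM, and Kcnu1, known as a sperm channel, 1.04 RPKM.

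Of the Kir genes, Kcnj16, whose product joins Kir4.1 in glia, and Kcnj9, a G-protein-gated (GIRK) subunit of neurons, followed Kcnj10 at 18.6 and 17.96 RPKM. The leak channel genes were led by Kcnk1 (TWIK-1) at 23.3 RPKM, Kcnk2 (TREK-1) at 13.4 RPKM and Kcnk3 (TASK-1) at 8.59 RPKM. Kcnrg, whose product regulates Kv channel assembly, had 0.542 RPKM. The noncoding genes Kcnd3os and Kcnq1ot1 had 0.587 and 0.549 RPKM and Kcnmb4os1 0.109 RPKM; the libraries were stranded, but whether strand was used in counting is not given in the sources used here, so reads of these genes and of the genes they overlap may not be separated.

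Channel gene levels were compared with marker scores over the 36 lines, since hypothalamic tissue borders other regions and a bulk library mixes cell types. In such libraries fewer cells of a type and less RNA per cell cannot be told apart. A score is the mean log2 CPM of a list of marker genes that holds no Kcn gene, and the slope is the change in log2 level of a channel gene per log2 unit of the score, from edgeR's quasi-likelihood fit to all 14994 genes tested with Benjamini-Hochberg adjustment over all of them. Of the 94 channel genes 79 passed the filter on low counts.

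The striatal markers included dopamine and adenosine receptor genes and Penk, a peptide gene of striatal projection neurons. With an adjusted p under 0.05, 13 of 79 channel genes rose with the striatal score and 2 fell. Of all genes 4.54% were called, 3.25% rising and 1.29% falling. The median slope of the 79 was 0.05, against 0.00 over all genes. Without BXD90, the line with the highest striatal marker sum, 9 rose and 0 fell, all 9 of them among the 13, against 2.12% of all genes. Without BXD32 13 rose and 1 fell, against 5.26% of all genes. Kcna1 was called there, with a slope of 0.26 (adjusted p = 0.00313) that was -0.032 with BXD32, while Kcnh1 and Kcnj14, at slopes of 0.14 and -0.29, were not (adjusted p = 0.089 and 0.144). The summed marker level ran from 716 CPM in BXD32 through a median of 896 CPM to 2549.8 CPM in BXD90, and none of the 18 markers found was at 0 in all lines. How much of the channel genes' movement comes with tissue from the striatum was not tested.

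Kcnh3 encodes a forebrain ether-à-go-go channel (Kv12.2). Its level was 1.84 CPM in the lowest line, 6.35 CPM in the median line and 36.6 CPM in the highest, 6.75 and 4.44 CPM in B6D2F1 and D2B6F1, and 8.83 and 6.49 CPM in C57BL/6J and DBA/2J. The lowest line was BXD32 and the highest BXD90, at 5.76 times the median, and the hybrids and parents lay inside the range of the lines. Its slope on the striatal score was 1.58 ± 0.09 (SE, adjusted p = 1.53e-17), and 1.70 without BXD90 (adjusted p = 7.28e-12).

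Kcnj4 encodes Kir2.3, an inward rectifier known from striatal and cortical neurons. It had 2.73 CPM in the lowest line, 8.43 CPM in the median line and 44.8 CPM in the highest, 7.42 and 7.29 CPM in B6D2F1 and D2B6F1, and 13.1 and 9.76 CPM in C57BL/6J and DBA/2J. BXD32 and BXD90 were again the lowest and the highest line, and without BXD90 the highest had 19.6 CPM. The slope was 1.39 ± 0.09 (SE, adjusted p = 5.36e-16), and 1.39 without BXD90 (adjusted p = 2.47e-09).

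Kcnip2, the KChIP2 subunit gene of Kv4 channels, ran from 31.002 CPM in BXD32 through a median of 49.9 CPM to 95.9 CPM in BXD90, with 48.2 CPM in both hybrids and 56.7 and 50.9 CPM in C57BL/6J and DBA/2J. It rose with a slope of 0.56 ± 0.05 (SE, adjusted p = 2.12e-10). Kcnv1, a silent Kv subunit gene, ran from 6.91 CPM through a median of 8.76 CPM to 18.5 CPM, again highest in BXD90, with 9.48 and 8.85 CPM in B6D2F1 and D2B6F1 and 9.62 and 8.55 CPM in C57BL/6J and DBA/2J. Its slope was 0.58 ± 0.06 (SE, adjusted p = 6.20e-09). Both kept their calls without BXD90, with slopes of 0.58 and 0.52.

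The promoter windows of Kcnj4 and Kcnip2 are shown because both genes rose with the striatal score with and without BXD90. They are RefSeq windows on GRCm38.p6 that run from 250 bases before to 50 bases after the start of the gene, 5′ to 3′ on its own strand. The capitals mark matches to GGGCGG, the GC box, on either strand, so that CCGCCC is a match on the other one.
Kcnj4 at chr15:79505192-79505491, minus strand: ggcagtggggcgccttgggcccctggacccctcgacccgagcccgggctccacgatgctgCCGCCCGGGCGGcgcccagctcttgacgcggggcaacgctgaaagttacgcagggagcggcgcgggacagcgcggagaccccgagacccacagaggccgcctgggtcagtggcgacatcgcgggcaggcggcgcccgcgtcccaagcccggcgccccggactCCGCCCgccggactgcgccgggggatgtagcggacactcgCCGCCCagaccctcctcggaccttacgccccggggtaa
Kcnip2 at chr19:45816014-45816313, minus strand: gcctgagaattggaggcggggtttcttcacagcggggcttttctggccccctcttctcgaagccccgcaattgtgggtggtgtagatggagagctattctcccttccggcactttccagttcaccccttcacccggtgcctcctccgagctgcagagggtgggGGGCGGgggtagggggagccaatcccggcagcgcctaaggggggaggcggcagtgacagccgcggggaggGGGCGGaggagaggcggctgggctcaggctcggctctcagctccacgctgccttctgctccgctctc
The Kcnj4 window holds 4 matches, a pair of which adjoin, and is 76.0% G and C. The Kcnip2 window holds 2 matches and is 67.0% G and C. The motif is in 35.7% of the 32851 promoter windows in the table and in 47.3% of the 93 windows found for 69 of the channel genes. A match is a run of letters and was not measured as a binding site.

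The other channel genes that rose with the striatal score did so with smaller slopes, all with edgeR adjusted p under 0.05. Kcnh4, a striatum-enriched relative of Kcnh3, rose by 0.62 ± 0.09 (SE) per unit, Kcnq5 of the M-current family by 0.35 ± 0.05, Kcnab1 by 0.37 ± 0.07 and the silent subunit gene Kcng1 by 0.47 ± 0.10. Kcnj2, the Kir2.1 gene, rose by 0.26 ± 0.06 and Kcna4, an A-type Kv1 gene, by 0.21 ± 0.05. Kcnma1 and Kcnq3 rose by 0.54 ± 0.15 and 0.60 ± 0.17, and both slopes were larger without BXD90, at 0.80 and 0.89. Kcnh1 rose by 0.17 ± 0.05. Kcnj5, a GIRK subunit gene, and Kcnj14, the Kir2.4 gene, were the 2 that fell, by 0.20 ± 0.05 and 0.37 ± 0.11. Without BXD90 the adjusted p of Kcnh4 was 0.0589, and those of Kcnab1, Kcnj2, Kcnj5, Kcnh1 and Kcnj14 lay between 0.117 and 0.672.

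**Figure D2:**
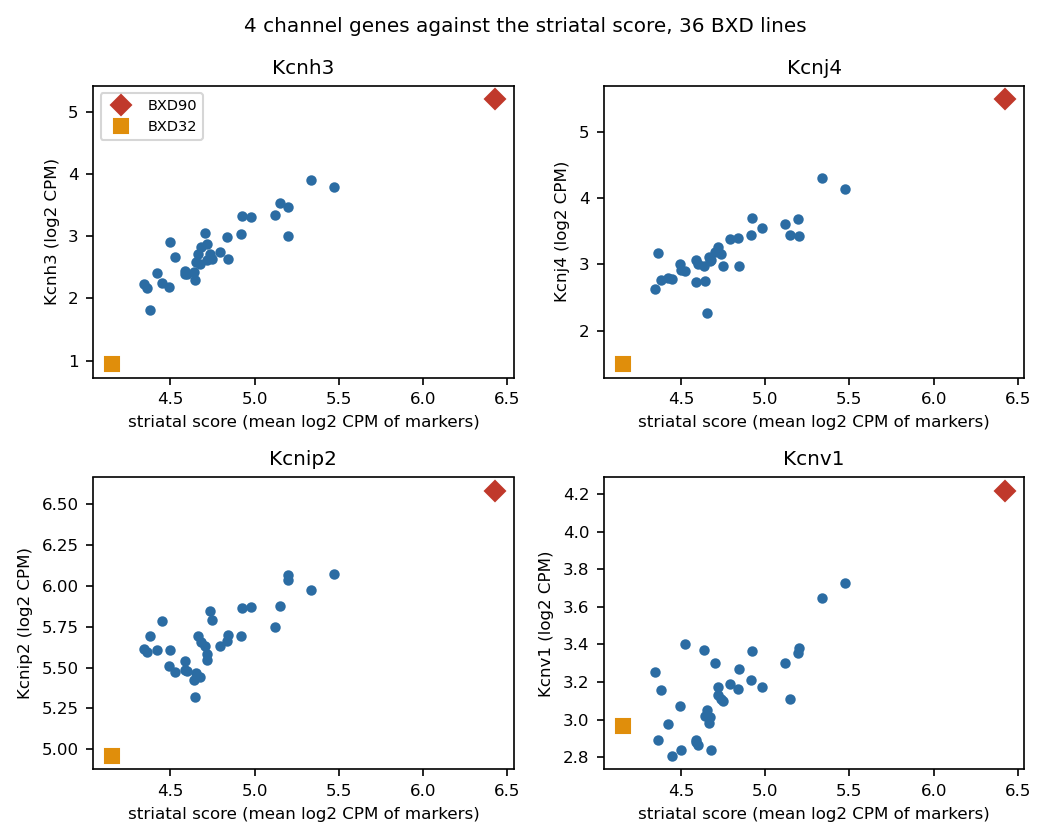
Level of Kcnh3, Kcnj4, Kcnip2 and Kcnv1 (log2 CPM, y axis) against the striatal marker score (mean log2 CPM, x axis), 1 point per BXD line, with BXD90 and BXD32 marked. The genes rise along the score among the unmarked lines too, and BXD90 lies far to the right of them.

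Thalamic markers, such as Tcf7l2 and Prkcd, ran in sum from 1032 CPM through 1265 CPM to 1648 CPM over the lines. With that score 7 of 79 channel genes rose and 0 fell. Of all genes 1.17% were called, 1.01% rising and 0.153% falling. Kcnc2, the Kv3.2 gene, had the smallest p. It had 95.3 CPM in the lowest line, 129.7 CPM in the median line and 168 CPM in the highest, 138 and 123 CPM in B6D2F1 and D2B6F1, and 141 and 129 CPM in C57BL/6J and DBA/2J. The highest was BXD64, the line with the highest thalamic marker sum. The slope of Kcnc2 was 0.52 ± 0.06 (SE, edgeR adjusted p = 6.15e-07). Kcnj12 (Kir2.2) rose by 0.42 ± 0.06, the silent subunit gene Kcns2 by 0.44 ± 0.09, the sodium-activated channel gene Kcnt2 by 0.44 ± 0.10 and the GIRK subunit gene Kcnj9 by 0.30 ± 0.08. Kcnma1 and Kcnq3, which also rose with the striatal score, had slopes of 0.81 ± 0.20 and 0.88 ± 0.23. Without BXD64 and BXD85, the lines farthest from the median score, Kcnc2, Kcnj12, Kcns2 and Kcnj9 were called, 4 in all, against 0.546% of all genes. Without BXD90 9 rose, against 1.95% of all genes called, and the 2 more were Kcna4 and the SK gene Kcnn3, with slopes of 0.28 and 0.41 (adjusted p = 0.0247 and 0.0336).

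**Figure D3:**
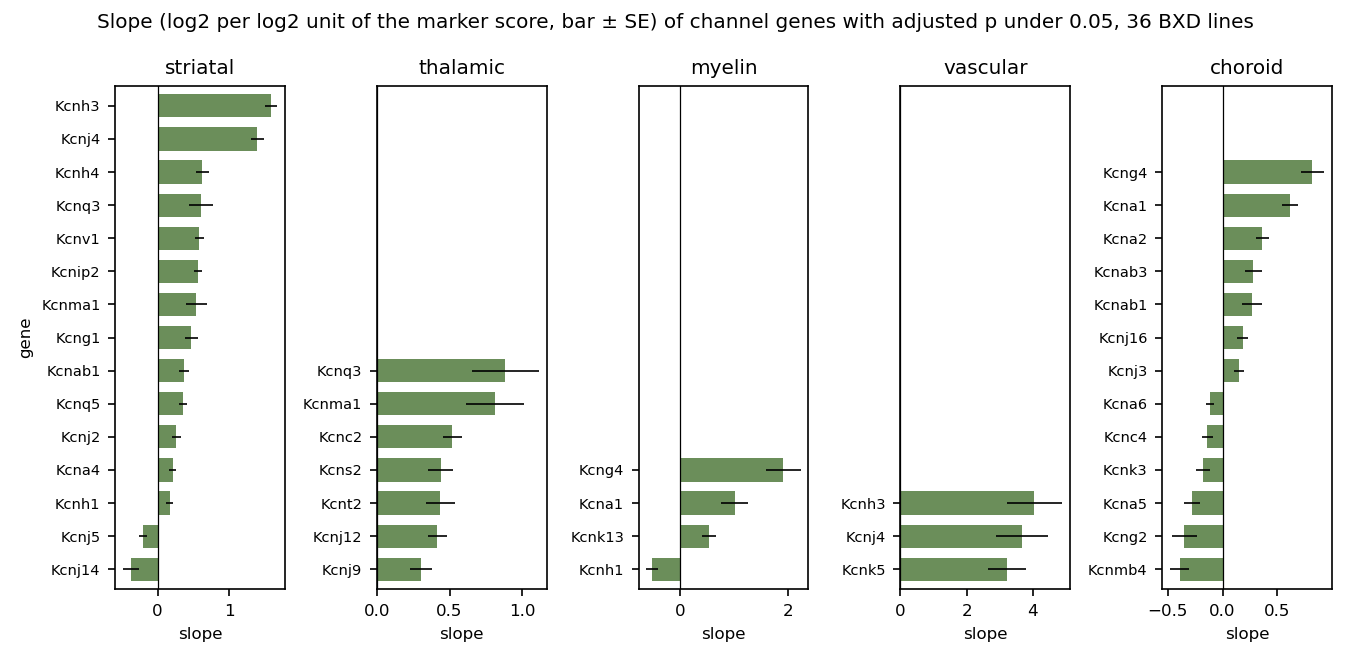
Slope of channel genes with an adjusted p under 0.05 on the striatal, thalamic, myelin, vascular and choroid plexus scores (x axis, log2 per log2 unit of the score, 36 BXD lines), with bars for the slope and whiskers for its SE. Scores differ in how far they range over the lines, so slopes compare within a panel; all choroid calls were lost without BXD32, and genes not reported here are left out.

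With the vascular score 3 of 79 channel genes rose and 0 fell. Of all genes 2.24% were called, 1.98% rising and 0.26% falling. Kcnk5, the leak channel gene TASK-2, had 0.458 CPM in the lowest line, 0.717 CPM in the median line and 1.78 CPM in the highest, 1.12 and 0.674 CPM in B6D2F1 and D2B6F1, and 0.914 and 1.44 CPM in C57BL/6J and DBA/2J. BXD56 was highest, and it was also the line with the highest vascular marker sum, 756 CPM against a median of 623 CPM. The gene had 807 reads over the 40 libraries, and the SD of its log2 level over the lines was 0.48, where counting alone would give 0.32. Kcnk5 had a slope of 3.22 ± 0.57 (SE, edgeR adjusted p = 0.000344), and 2.86 without BXD56 and BXD75 (adjusted p = 0.0397). Kcnh3 and Kcnj4 had slopes of 4.05 ± 0.84 and 3.67 ± 0.78, and of 2.60 and 2.245 without BXD90, where neither was called (adjusted p = 0.0525 and 0.0624), which left 1 channel gene, against 1.47% of all genes.

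The myelin and choroid plexus scores were both highest in BXD32, and most of the channel gene calls were lost without that library. With the myelin score 4 of 79 channel genes rose and 1 fell. Of all genes 1.47% were called, 1.29% rising and 0.18% falling. Without BXD32 1 channel gene rose and 1 fell, against 3.11% of all genes. Kcnk13, the leak channel gene THIK-1 known from microglia, rose with myelin markers with a slope of 0.53 ± 0.13 (SE, edgeR adjusted p = 0.0222), and 0.67 without BXD32 (adjusted p = 0.00323). It had 7.67 CPM in the lowest line, 11.2 CPM in the median line and 14.03 CPM in the highest, 12.97 and 11.8 CPM in B6D2F1 and D2B6F1, and 13.1 and 11.7 CPM in C57BL/6J and DBA/2J. The 12 microglial markers summed to between 337 CPM, in BXD32, and 534 CPM. Kcnh1 fell by 0.52 ± 0.11 (SE, edgeR adjusted p = 0.00403) on the myelin score, and by 0.46 without BXD32 (adjusted p = 0.0294). Without BXD32 and BXD79, the lines farthest from the median score, Kcnh1 was not called (slope -0.45, edgeR adjusted p = 0.0796). Kcnk13 was still called there (slope 0.65, edgeR adjusted p = 0.0248). Kcng4 and Kcna1 had slopes of 1.92 ± 0.32 and 1.01 ± 0.25, and of 0.72 and 0.17 without BXD32 (adjusted p = 0.125 and 0.606).

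With the choroid plexus score 8 of 79 channel genes rose and 6 fell. Of all genes 15.5% were called, 6.59% rising and 8.95% falling. Without BXD32 0 of 79 channel genes and 1 of all genes, or 0.00666%, were called by edgeR, and 8 of 79 had an unadjusted p under 0.05, against 6.62% of all genes. The choroid marker sum was 1006 CPM in BXD32 and at most 203 CPM in any other line, and the myelin sum was 9117 CPM in BXD32 against a median of 5898 CPM. The protocol in the labels mentions brainstem as well as hypothalamus among the tissues extracted. Which tissue the BXD32 library held was not tested.

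BXD32 lay outside the range of the other lines for several channel genes. Kcna1 had 332 CPM there, against a median of 112 CPM and at most 155 CPM in the other lines, and Kcna2 had 445 CPM, against a median of 252 CPM and at most 299 CPM in the others. Kcng4, a silent subunit gene, had 20.5 CPM, or 4.33 times the median of 4.75 CPM, where no other line exceeded 6.73 CPM. Kcnab3, a Kv beta subunit gene, had 62.4 CPM, against a median of 31.02 CPM and at most 38.5 CPM. Low in the same library were Kcnmb4, the neuronal BK beta subunit gene, at 4.18 CPM against a median of 8.28 CPM, Kcna5 at 9.22 CPM against 15.3 CPM, and Kcnf1 at 26.4 CPM against 49.4 CPM. Of the 75 channel genes of at least 1 CPM, BXD32 was the highest line for 11 and the lowest for 12, against 12.2% and 12.7% of all 14487 genes of that level. BXD90 was the highest line for 14 of the 75, or 18.7%, against 5.43% of all genes. BXD43 was the lowest for 10 and BXD101 for 9, against 13.9% and 5.03% of all genes.

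**Figure D4:**
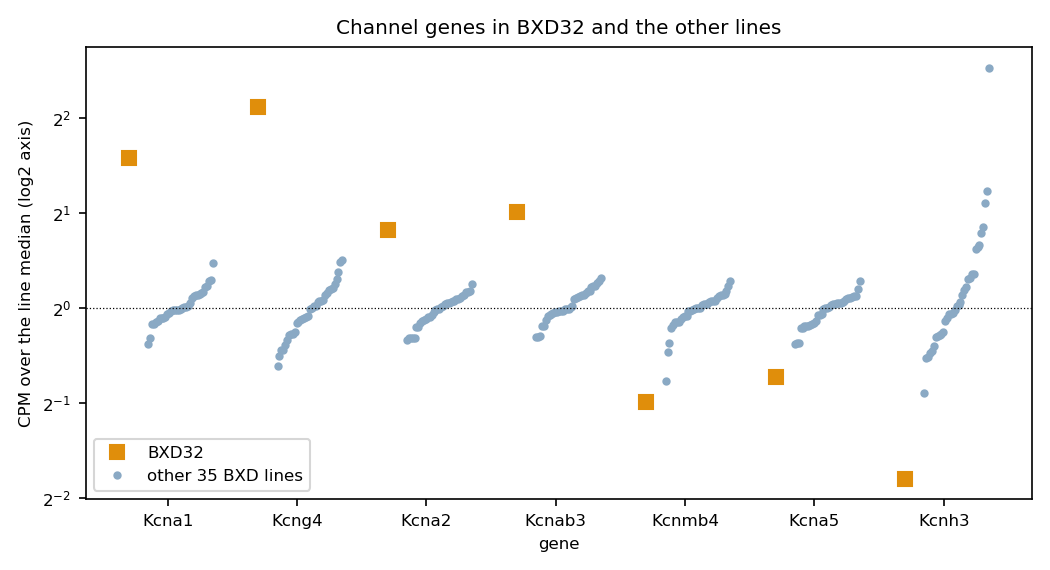
Level of 7 channel genes relative to the median line (CPM over the line median, y axis on a log2 scale), with BXD32 as a square and each of the other 35 BXD lines as a point, sorted. BXD32 lies outside the other lines for all 7, at 4.33 times the median for Kcng4 and below the median for Kcnmb4, Kcna5 and Kcnh3.

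Further choroid slopes that passed the edgeR test were those of Kcnj3, Kcnj16 and Kcnab1, which rose by 0.15 ± 0.05, 0.18 ± 0.05 and 0.27 ± 0.09 (SE), and of Kcna6, Kcng2, Kcnk3 and Kcnc4, which fell by 0.11 ± 0.04, 0.35 ± 0.11, 0.18 ± 0.06 and 0.14 ± 0.05. None of them passed without BXD32, where the adjusted p ran from 0.732 to 0.967. The slopes of Kcnab1 and Kcnc4 were then 0.35 and -0.14 and that of Kcna6 -0.078, while those of Kcnj3, Kcnj16, Kcng2 and Kcnk3 were 0.030, 0.023, -0.14 and -0.063.

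Genes without a Kcn symbol whose products partner these channels were read beside them, 16 in all, of which 15 were tested. Among them were Dpp6 and Dpp10, subunits of Kv4 channels, the sulfonylurea receptor genes Abcc8 and Abcc9, the BK gamma subunit genes Lrrc26, Lrrc38, Lrrc52 and Lrrc55, the Kv2 partner Amigo1, the Kv1 partners Cntnap2, Lgi1 and Adam22, and the related cation channel genes Hcn2, Hcn3 and Hcn4. The median line had 579 CPM of Dpp6, 325 CPM of Adam22 and 14.8 CPM of Hcn4, and Lrrc52 had 0 counts in the median line. With the choroid score Abcc9 and Lgi1 rose by 0.26 and 0.14 and Hcn3, Hcn4 and Amigo1 fell by 0.24, 0.25 and 0.15, and none of these was called without BXD32, where their slopes were 0.13 and 0.12 and -0.23, -0.30 and -0.083. No partner gene was called with the striatal, thalamic, myelin or vascular score. Of the 4 KChIP genes, which are Kv4 partners with a Kcn symbol, Kcnip2 alone was called with these scores, on the striatal one.

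The series is named for Fgf15, the gene of an intestinal and hypothalamic growth factor, so the channel genes were also set against its log2 level over the lines. Fgf15 itself was low, from -1.66 log2 CPM in BXD97 to 1.12 in BXD67. The fit took no account of counting error in that level, which limits what an absence of calls can show. No channel gene was called by edgeR, nor by DESeq2, and 1 of all 14994 genes was, or 0.00667%. At an unadjusted p under 0.05, 6 of 79 channel genes passed in edgeR and 7 in DESeq2, against 5.02% of all genes. Kcnh7, an ether-à-go-go gene, had the smallest p, with a slope of 0.30 ± 0.10 (SE, edgeR adjusted p = 0.856).

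In the BXD lines against the hybrids and parents, 0 of 81 channel genes tested were called by edgeR and 0 by DESeq2, with 0% of all 16198 genes called. Here, and in the hybrids against the inbred strains, both sides hold alleles of both parents. The effect of an allele can largely cancel between the group means, so 0 calls do not speak to allele effects. At an unadjusted p under 0.05 none of the 81 passed, against 1.01% of all genes. The median log2 difference of the 81 was -0.02, against 0.00 over all genes. Kcnk13 came first, at -0.14 ± 0.08 (SE, edgeR adjusted p = 1.00). Kcnj10 averaged 665 ± 124 CPM in the lines (SD, n = 36), where the hybrids had 645 and 682 CPM and the parents 582 and 735 CPM. For B6D2F1 and D2B6F1 against the 38 inbred strains, 0 of 83 channel genes were called by edgeR and 0 by DESeq2, none passed at an unadjusted p under 0.05, and 0% of all 16434 genes were called, with 0.663% unadjusted. On simulated data of the same layout edgeR recovered 93% of changes of 1 log2 unit and 71% of changes of 0.5 for the lines against the hybrids and parents, and 92% and 59% for the hybrids against the inbred strains. It made 14 and 9 false calls there. Whether the same recovery holds in the real libraries was not tested.

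The parents have 1 library each, so their difference was judged by size alone, as at least 0.5 log2 units with at least 5 CPM in either, and without a test. By that rule 2 of 62 channel genes differed, against 2.99% of all genes. Kcng1, a silent subunit gene, was at 5.72 CPM in the C57BL/6J library and at 3.53 CPM in that of DBA/2J, which is 0.68 log2 units higher in C57BL/6J. Its lines spanned 2.46 to 6.42 CPM around a median of 3.92 CPM. Kcnq1ot1, the paternally expressed noncoding RNA of the Kcnq1 imprinted domain, was at 36.9 CPM in the C57BL/6J library and at 59.9 CPM in that of DBA/2J, a difference of -0.70. Both parents lay inside its line range of 24.5 to 95.3 CPM. The nuclear-retained RNA Malat1 and the gene Grin2b ran close to Kcnq1ot1 over the lines, with Spearman's rho = 0.926 and 0.941. The DBA/2J library held more of these too, with Malat1 at 2349 against 1176 CPM and Grin2b at 13.1 against 8.27 CPM. Their part in the difference of Kcnq1ot1 was not tested.

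The reciprocal hybrids share their autosomal genotypes and differ in which parent was the mother. By the same rule 2 of 59 channel genes differed, against 0.8% of all genes. Kcnh3 had 6.75 CPM in B6D2F1 and 4.44 CPM in D2B6F1, a difference of 0.59. The striatal markers, with which it rose over the lines, summed to 875 CPM in B6D2F1 and 813 CPM in D2B6F1, and their part in this difference was not tested. A sum weighs abundant markers most, and the striatal score used for the slopes was not computed for the hybrids. Kcnh6, the ERG2 gene, had 6.86 CPM in B6D2F1 and 9.80 CPM in D2B6F1, a difference of -0.51. Kcnq1ot1, for which the parental origin of the allele decides expression, had 66.5 CPM in B6D2F1 and 68.7 CPM in D2B6F1.

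Over the 36 lines the channel genes had a median biological coefficient of variation of 0.133, against 0.0997 over all genes. The most stable genes, named after their values were seen, included Kcnip1, with 69.1 to 82.8 CPM over the lines (coefficient 0.0482), and Kcnk2, with 59.8 to 73.6 CPM (0.0539). No channel gene split the lines by a step of at least 0.5 log2 units with 6 or more lines on each side, 0 of 75, against 1.3% of all genes of at least 1 CPM. The widest such step was 0.31, in Kcnq1ot1. The 8 most variable channel genes of at least 1 CPM were Kcnh3 (coefficient 0.511), Kcnj4 (0.466), Kcnq1ot1 (0.381), Kcnh7 (0.350), Kcng4 (0.349), Kcna3 (0.307), Kcnq3 (0.307) and Kcnma1 (0.274). BXD90 was the highest line for Kcnh3 and Kcnj4, and BXD32 for Kcng4. The coefficients include both libraries and were not computed without them.

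Kcnq1ot1 had 24.5 CPM in the lowest line, 43.5 CPM in the median line and 95.3 CPM in the highest. BXD71 was lowest and BXD49 highest, and the SD of its log2 level was 0.56, where counting alone would give 0.04. Kcnq3 had 4.49 CPM in the lowest line, 9.04 CPM in the median line and 16.4 CPM in the highest, with 9.60 and 8.39 CPM in B6D2F1 and D2B6F1 and 12.01 and 10.1 CPM in C57BL/6J and DBA/2J. Kcnma1 had 15.1 CPM in the lowest line, 26.3 CPM in the median line and 47.2 CPM in the highest, with 25.3 and 22.3 CPM in B6D2F1 and D2B6F1 and 32.7 and 27.95 CPM in C57BL/6J and DBA/2J. Kcnq3 and Kcnma1 were both highest in BXD64. Kcna3, a Kv1 gene, ran from 3.02 through 6.40 to 10.3 CPM, and Kcnh7 from 1.15 through 2.13 to 4.17 CPM, both highest in BXD49.

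Over the lines 19 of the 28 pairs of these 8 genes were related by Spearman's rho with an adjusted permutation p under 0.05. The 8 were picked for their spread over these same lines, and the share among pairs of other genes was not computed. The count therefore does not set channel genes apart from other variable genes. Kcnq3 and Kcnma1 were the closest, with rho = 0.954 and Pearson's r = 0.938 over 36 lines (permutation p = 1e-05 for each, the smallest that 100000 permutations can give, adjusted p = 5.6e-05), and r = 0.955 without the 2 lines farthest from the median of Kcnq3. Kcnh3 and Kcnj4 had rho = 0.848 and r = 0.932 (permutation p = 1e-05 for each, adjusted p = 5.6e-05), and r = 0.847 without BXD90 and BXD32. Kcnq1ot1 and Kcnh7 had rho = 0.796 and r = 0.822 (permutation p = 1e-05 for each, adjusted p = 5.6e-05), and r = 0.791 without the 2 lines farthest from the median of Kcnq1ot1. Kcng4 was related to none of the other 7 by rho, with adjusted p of at least 0.0627.

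The genes most like each of the 8 over the lines, among 14486 genes, were as follows. For Kcnh3 they were Ddn (rho = 0.899) and Chrm1 (0.895), and for Kcnj4 they were the striatal markers Penk (0.878) and Adora2a (0.864). For Kcnq1ot1 they were Grin2b (0.941) and Tbrg3 (0.932), for Kcnh7 BC005561 (0.855) and Lrp1b (0.841), for Kcng4 Adora1 (0.659) and Sept4 (0.655), and for Kcna3 Helz (0.713) and Srrm4os (0.711). Kcnq3 and Kcnma1 were each most like the other. Ddn lies on chromosome 15 with Kcnh3, with 10 genes between them, and Lrp1b on chromosome 2 with Kcnh7, with 51 between; the other genes of known position lie on other chromosomes. The nuclear-retained RNA Malat1, looked up after these values were seen, ran from 735 to 3788 CPM over the lines and had rho = 0.926 with Kcnq1ot1, 0.804 with Kcnh7, 0.727 with Kcnma1, 0.694 with Kcnq3 and 0.0152 with Kcng4. The share of nuclear RNA in the libraries was not measured, and its part in these levels was not tested. A score of 6 nuclear long noncoding RNAs (Malat1, Neat1, Meg3, Miat, Rian and Snhg11), written after the data were seen, gave 0 of 79 channel genes called by edgeR and 0 by DESeq2, against 0.0467% of all genes. At an unadjusted p under 0.05, 16 of 79 channel genes passed in edgeR and 17 in DESeq2, against 7.53% of all genes. Kcnh7 came first, with a slope of 1.20 ± 0.32 (SE, edgeR adjusted p = 0.24).

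In recombinant inbred lines genes near each other on a chromosome share parental alleles, so the most alike gene of each channel gene was also read for position. For 9 of 75 channel genes it lay on the same chromosome, against 16.3% of 14283 genes, so the channel genes were not above the background. For Kcnj10, Kcnh6 and Kcnip3 among the 9, that gene moved the other way over the lines. For the rest of the 9 it rose with the channel gene, with rho from 0.569 to 0.899. The examples below were chosen after the values were seen, for an alike gene close by on the chromosome.

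Kcnj10 on chromosome 1 had 462 CPM in the lowest line, 652 CPM in the median line and 916 CPM in the highest, BXD32. Klhdc9, 17 genes away, moved the other way over the lines, with rho = -0.810, from 12.4 CPM to 29.6 CPM. Kcnj10 had 645 and 682 CPM in B6D2F1 and D2B6F1 and 582 and 735 CPM in C57BL/6J and DBA/2J, and Klhdc9 had 18.8 and 21.1 CPM in the hybrids and 20.9 and 16.7 CPM in the parents.

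Kcnf1 on chromosome 12 had 26.4 CPM in the lowest line, BXD32, 49.4 CPM in the median line and 65.7 CPM in the highest, and was most like 1700030C10Rik of the same chromosome (rho = 0.841, 5 genes between), a gene with at most 3.46 CPM in any line. Pqlc3, with 1 gene between them, came second, with rho = -0.782. Kcnh6 on chromosome 11 ran from 5.11 through 8.19 to 10.2 CPM and Cyb561, with 1 gene between them, had rho = -0.686 with it. B6D2F1 and D2B6F1 had 6.86 and 9.80 CPM of Kcnh6, and C57BL/6J and DBA/2J had 6.60 and 8.96 CPM. Kcnip3 on chromosome 2, the gene of KChIP3, ran from 64.0 through 75.2 to 89.4 CPM, and its 3 most alike genes were all on that chromosome, with Tmem87b first (rho = -0.756, 8 genes between).

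**Figure D5:**
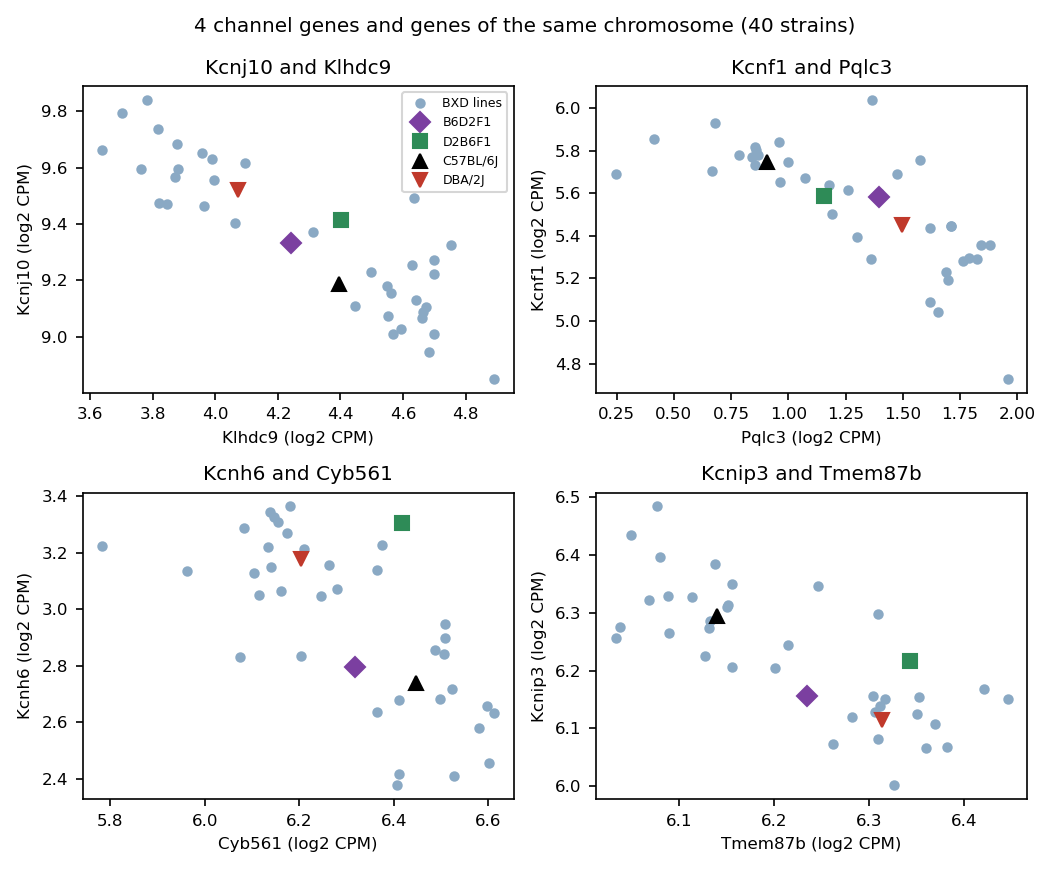
Kcnj10, Kcnf1, Kcnh6 and Kcnip3 (log2 CPM, y axis) against a gene of the same chromosome (Klhdc9, Pqlc3, Cyb561 and Tmem87b, log2 CPM, x axis), with 36 BXD lines as points and the 2 hybrids and 2 parents marked. In each panel the channel gene is lower where the other gene is higher over the lines, with rho between -0.810 and -0.686. The pairs are chosen examples, and the most alike gene of Kcnf1, not plotted, had rho = 0.841.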

How the data were processed

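Hypothalamic RNA of 40 strains was prepared as stranded mRNA libraries and read as 100-base single ends, with 40 M reads planned, per the labels' protocols. Per the submitters' processing notes TopHat2 2.0.8, HTSeq 0.5.4p3, DESeq and assembly mm9 were used; their settings are not given in the sources used here. The deposited raw table holds whole-number counts for 23955 genes and is the main input. The deposited normalized table holds a signal, read counts that the authors divided by a size factor per library (100% of values whole multiples within a tolerance of 0.01), for 15251 genes; it served as an alternative, and 36.5% of its recovered reads equal the raw ones.

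Models used edgeR 4.0.16 under R 4.3.3 (robust quasi-likelihood, TMM, filterByExpr, adjusted p under 0.05), tested on simulated data, with DESeq2 1.42.0 as the other tool. A log2 CPM carries a prior count of 2. Markers under 1 CPM were left out of the scores. Chromosomes, gene order and lengths came from GENCODE vM21 on GRCm38.p6, so no coordinates are given for the counted genes. Libraries held 12.2 to 40.4 M counts, which limits the precision of genes under 1 CPM. P-values measure the spread between strains, each with 1 library.

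The genes and lists were chosen with earlier results of these data known. Named were the 3 highest genes by RPKM of each family, up to 12 by adjusted p per comparison, all that met the size rules, the 8 most variable with their 2 most alike genes, and the partner genes; some genes that this rule picks are not reported here. Fits without BXD32 or BXD90, the Malat1 values, the hindbrain and nuclear RNA lists and the positions of alike genes were added after seeing the data.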

Additional observations from a re-analysis of the deposited data

How the results depend on the processing

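Under edgeR's other size factors, DESeq2, no filter on low counts and the reads of the normalized table, the total of channel genes called with each score stayed within 1.5 times its value above, and of the 2 that fell with the striatal score 1 did so under DESeq2 and with the reads of the normalized table. Leaving out lines moved several counts. Without the 2 lines farthest from the median score, the calls came to 8 for the striatal score, 4 for the thalamic, 1 for the myelin and 0 for the choroid plexus score. Without BXD32 they came to 2 for the myelin and 0 for the choroid plexus score, and without BXD90 to 9 for the striatal and 1 for the vascular score. Choroid plexus slopes that changed sign, each with adjusted p over 0.5, included those of Kcng4 (-0.040 without the 2 farthest lines, -0.017 without BXD32), Kcnab3 (-0.36 and -0.28) and Kcnj3 (-0.013 without the 2 farthest). With no CPM minimum 13 of 94 channel genes met the parental rule (13.8%, against 18.6% of all genes), 7 of 90 the reciprocal rule (7.78%, against 12.1%) and 6 of 94 the line step rule (6.38%, against 7.7%). Leaving out each hybrid or parent in turn left 0 channel genes called for the lines against the hybrids and parents. No paired analysis was possible because a strain is represented by a single library, with no matched partner. Depth limits the lowest genes, such as Kcnk16 with 9 reads over 40 libraries.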
